A study of Danio rerio with 12 samples.

Results

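The genes described here were a list of 36 phagocyte and leukocyte genes, given by symbol and not by a measured threshold. The list was chosen with earlier results of these data known. All 36 were found among the 32520 genes of the count files. By role, 11 were taken for the macrophage side, 2 are myeloid transcription factors of both lineages, 5 stand for the neutrophil side, 5 are parts of the NADPH oxidase, 10 are pan-leukocyte genes of signalling, adhesion and the cytoskeleton, 2 are cytokines, and tspan36 was left unassigned because it is also a pigment cell gene in zebrafish.

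Leukocytes enter skeletal muscle when fibres are injured: neutrophils come early and leave, and macrophages clear debris and support repair. Both arise from myeloid progenitors that depend on the transcription factor Pu.1, with Irf8 favouring the macrophage fate. They carry the leukocyte common antigen and β2 integrins, move by actin remodelling, and kill and signal with the phagocyte NADPH oxidase.

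Messenger RNA was sequenced from the extraocular muscle (EOM), which moves the eye, and from trunk muscle of zebrafish of the AB strain aged 5 months. In each tissue, WT fish were set against desma-/-;desmb-/- double mutants, in which both genes for desmin are mutated, the intermediate filament of the muscle fibre. This gave 4 groups of 3 libraries, 12 in all, and the labels give the WT fish as descending from the line in which the mutant was made. In the series text desmin was knocked down and more than 1 age was sampled, but the sample labels, followed here, name the double mutant and 1 age. The labels do not say whether a library is 1 fish or a pool, nor whether replicates are separate fish, so a p-value here measures the spread between these libraries, which may be technical. The labels name myofibres as the cell type, but the RNA came from dissected tissue, and in bulk tissue more cells of a kind and more RNA per cell cannot be told apart.

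Libraries held 64544544 to 91115096 reads on the strand of the genes. Genes with at least 1 read numbered 19402 in mutant trunk library 2 and 19431 in mutant EOM library 2, and 21556 to 24467 in the other 10. The targeted gene desma was at 509 to 1336 CPM in WT EOM against 18.2 to 26.2 CPM in mutant EOM, and at 519 to 644 CPM in WT trunk and 36.7 to 62.7 CPM in mutant trunk. The second gene, desmb, had 0 to 12 reads in every library and so could not check the labels. Summed over 17 muscle genes, the level was 46191 to 126514 CPM in WT EOM, 49256 to 108251 in mutant EOM, 133918 to 161003 in WT trunk and 152680 to 330169 in mutant trunk. Markers of erythrocytes, keratinocytes and endothelium were present in all 12 libraries.

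Levels are normalised read counts (CPM, with every library brought to the same total) scaled by TMM over the 12 libraries, and where 3 values are given they belong to libraries 1, 2 and 3 of a group in that order. A mean is given with its SD over the 3 libraries. Whether groups overlapped was judged on these TMM-scaled levels, and every statement of overlap below refers to them unless library totals are named. No count of overlap was taken anew under scaling by library totals alone, where some trunk genes named below did overlap. Differences between groups are log2 fold changes with their standard error (SE) from edgeR's quasi-likelihood test, positive where the mutant, or trunk muscle, was higher. A gene was called when its Benjamini-Hochberg adjusted p was under 0.05 over all genes tested. In EOM, libraries with the same number deviated together between WT and mutant (correlation 0.25 to 0.55 over the 3 pairs). The fit with replicate number as a block is therefore given beside a result where it changes the call. Correlations between libraries of different number were not computed, so a call that needs the block rests on a pairing that no label gives and that was not tested.

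Of the 36 genes, 33 had enough reads to be tested in every comparison. The other 3 were lyz, mmp13a and tnfa. Lysozyme, lyz, the usual neutrophil marker of zebrafish larvae, had 0 to 2 reads per library, which is under the floor of 3 reads everywhere. The collagenase gene mmp13a had 0 to 9 reads and the cytokine gene tnfa 0 to 11 reads. Of the neutrophil side, 3 of 5 genes could therefore be read, against all 11 on the macrophage side.

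Over the whole list, most leukocyte genes had higher levels in mutant than in WT muscle, in both tissues, but edgeR without the replicate block called none of them. In EOM, 29 of the 33 genes had a positive log2 fold change, against 52% of all 18804 genes tested, and their median was 0.67 against 0.03. In trunk muscle, 23 of 33 were positive, against 48.4% of 18041 genes, with a median of 0.76 against -0.03. This did not hold for every role in trunk. On the macrophage side 6 of 11 were positive (54.5%, median 0.17), near the share of all genes. On the neutrophil side 0 of 3 were, against 5 of 5 oxidase genes and 9 of 10 pan-leukocyte genes. Under the scaling by library totals alone, which moved the median of all genes in trunk to -0.50, 19 of 33 were positive in trunk and 28 in EOM. Relative to the all-gene median, the median of the 33 genes was then 0.72 higher in trunk and 0.55 higher in EOM. Because the list was chosen with earlier results known, these and later contrasts with all genes may not be independent of the data.

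In EOM, 0 of the 33 genes were called by edgeR, where 0.303% of all genes were. At an unadjusted p under 0.05 there were 8, all higher in the mutant, where 2.58% of all genes were higher at that threshold: spi1a, irf8, ncf4, hck, cxcr4b, csf3r, havcr1 and rac2. With the replicate block, 6 were called, all higher: hck, irf8, ncf4, csf3r, rac2 and spi1a. The same fit called 1.08% of all genes higher. DESeq2 called 1 of the 33, hck (adjusted p = 0.0385), where it called 0.293% of all genes higher. In 11 of the 33 genes all 3 mutant libraries lay above all 3 WT libraries, where 4.05% of all genes did: marco, spi1a, irf8, cybb, ncf1, ncf4, hck, cxcr4b, wasb, havcr1 and lgals9l1. None lay wholly below, where 6.93% of all genes did. The count at an unadjusted p under 0.05 was 4 without WT library 2, where 1.63% of all genes were higher. It was 10 without mutant library 3, where 4.65% were.

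In trunk muscle, edgeR again called 0 of 33, where it called 0.0333% of all genes. At an unadjusted p under 0.05 there were 15, all higher in the mutant, where 8.72% of all genes were higher at that threshold: irf8, lcp1, tspan36, spi1a, ptprc, laptm5, wasb, cxcr4b, spi1b, coro1a, rac2, marco, arpc1b, havcr1 and ncf4. In 16 genes the mutant libraries all lay above the WT libraries, where 12.6% of all genes did, and in 1, csf1rb, all lay below, where 14.2% did. Overlap was judged on the TMM scale only. TMM factors were 0.639, 0.555 and 0.922 in mutant trunk and 1, 0.993 and 0.963 in WT trunk. Whether these counts hold under library totals alone was not tested. DESeq2 called 10 of the 33, all higher, where it called 2.24% of all genes higher: irf8, lcp1, tspan36, spi1a, laptm5, spi1b, wasb, ptprc, coro1a and cxcr4b. Scaled by library totals alone, 2 genes were higher and 2 lower at an unadjusted p under 0.05, where 1.75% of all genes were higher. The share of all genes lower under this scaling was not counted, and their median was -0.50, so the 2 lower genes cannot be set against a background. Without mutant library 2, edgeR called irf8 and lcp1, and 251 genes in all.

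**Figure D1:**
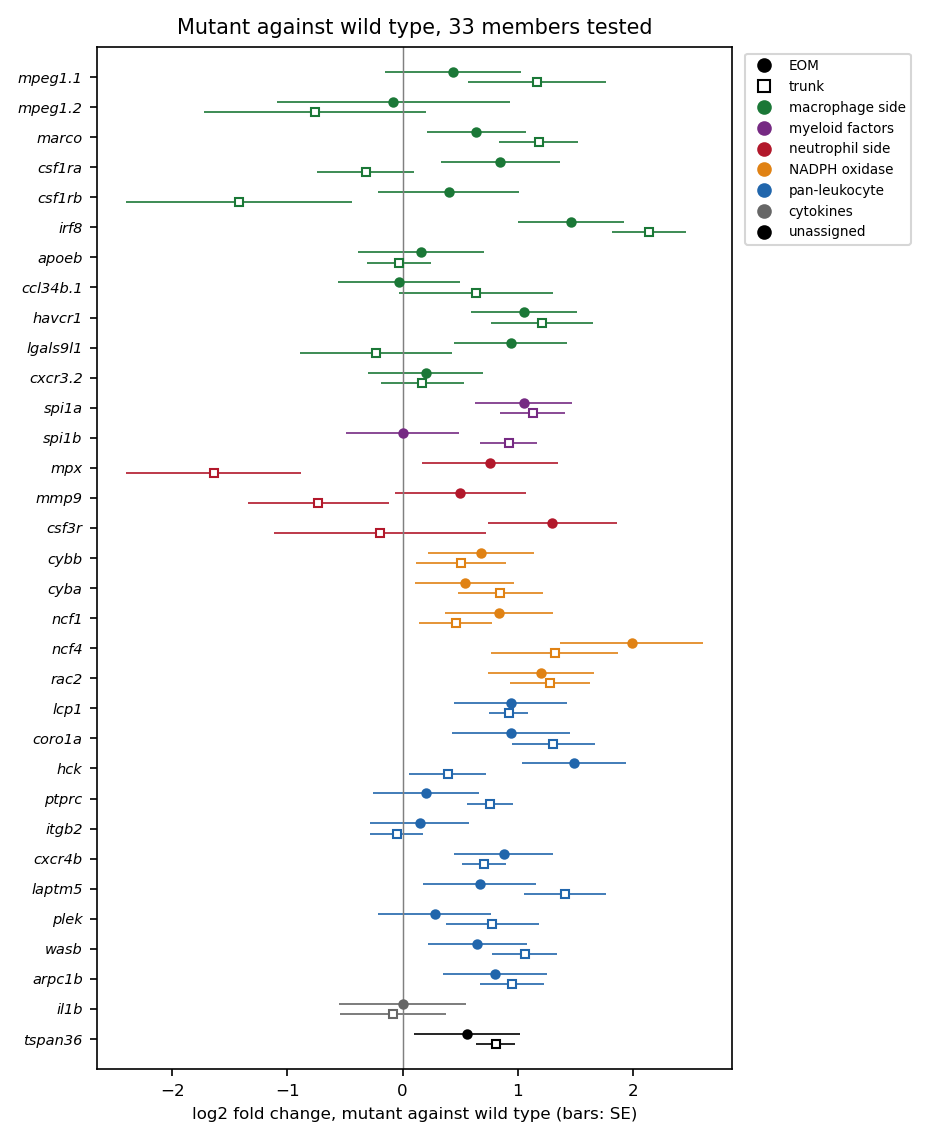
Log2 fold change of mutant over WT muscle (x axis) for each of the 33 tested genes (rows, grouped by role), with bars of 1 SE. Filled circles are EOM and open squares trunk muscle. The points of irf8, spi1a and rac2 lie right of 0 in both tissues, and those of mpx, mmp9 and csf1rb lie on opposite sides of 0 in the 2 tissues.

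Among regulators, irf8, a transcription factor that zebrafish need to form macrophages rather than neutrophils, had the smallest p of the list in trunk. In WT EOM it was at 5.56, 6.37 and 4.89 CPM and in mutant EOM at 25.2, 13.1 and 8.28 CPM. Every mutant library lay above every WT library, with the highest level in library 1. The difference was 1.46 (SE 0.46, adjusted p = 0.374), and with the replicate block it was 1.32 and was called (adjusted p = 0.00621). In trunk, irf8 was at 3.21, 3.42 and 2.69 CPM in WT and 20.5, 10.2 and 10.5 CPM in the mutant, again with no overlap and again highest in mutant library 1. The trunk difference was 2.14 (SE 0.32, adjusted p = 0.0841), with an adjusted p of 9.71e-07 by DESeq2. Over the 6 edgeR fits that left out 1 library the adjusted p ran from 0.0102, without mutant library 2, to 0.494.

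The zebrafish co-orthologues of Pu.1 are spi1a and spi1b, and the difference between the 2 genes was not tested. The level of spi1a was 5.61, 4.39 and 6.52 CPM in WT EOM against 12.3, 10.8 and 11.2 CPM in mutant EOM, the groups not overlapping, with a difference of 1.05 (SE 0.42, adjusted p = 0.713, called with the block at 0.0412). For spi1b, WT EOM libraries were at 4.51, 3.28 and 5.92 CPM and mutant EOM libraries at 5.34, 1.54 and 6.71 CPM. Mutant library 2 held the lowest spi1b level of all 12 libraries and mutant library 3 one above every WT library, and the difference was -0.00 (SE 0.49). In trunk, spi1a was at 4.39, 4.41 and 3.12 CPM in WT and 7.42, 11 and 7.64 CPM in the mutant (1.13, SE 0.28, adjusted p = 0.221). For spi1b the trunk values were 4.26, 4.56 and 3.06 CPM in WT and 8.51, 6.79 and 7.27 CPM in the mutant (0.92, SE 0.25, adjusted p = 0.255). Neither gene's trunk groups overlapped. Reads on the opposite strand made up 18.5% of the reads on both strands at spi1b, and the count used here leaves them out.

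**Figure D2:**
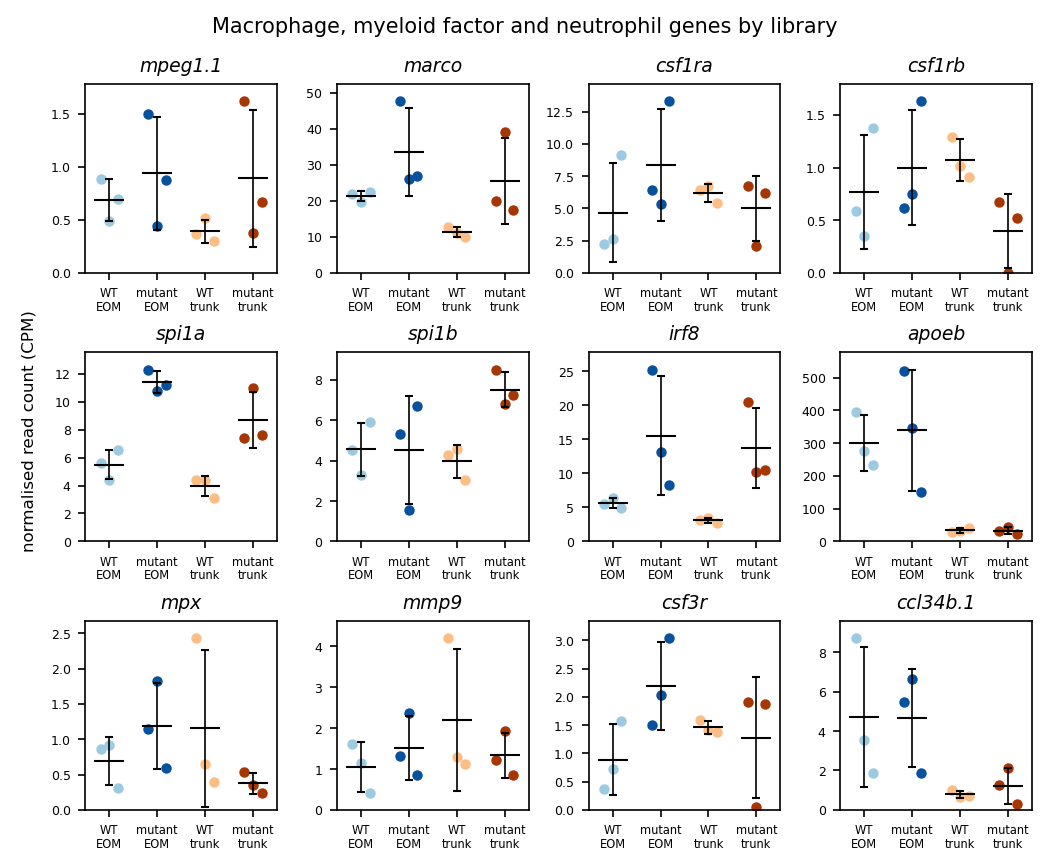
Normalised read count (CPM, y axis, one linear scale per panel starting at 0) in each library of the 4 groups for 12 genes of the macrophage and neutrophil sides and the 2 Pu.1 genes; points are libraries and black bars the mean ± SD of 3. The mutant points of irf8 and spi1a lie above the WT points in both tissues, and apoeb is higher in EOM than in trunk.

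On the macrophage side, 9 of 11 genes were positive in EOM and 6 of 11 in trunk, and 8 and 4 under library totals. The trunk share, 54.5%, was near the 48.4% of all genes. The scavenger receptor gene marco, whose product binds bacteria and other particles on macrophages, was at 22, 19.8 and 22.4 CPM in WT EOM against 47.7, 26.2 and 26.9 CPM in mutant EOM. Mutant library 1 stood well above the other 5, and the groups did not overlap (0.64, SE 0.43, adjusted p = 0.999). In trunk marco was at 12.8, 11 and 10.1 CPM in WT and 20.1, 39.1 and 17.4 CPM in the mutant, where library 2 was highest and no library overlapped (1.18, SE 0.34, adjusted p = 0.274).

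The pore-forming protein gene mpeg1.1, the usual macrophage reporter in zebrafish, did not separate the genotypes. WT EOM libraries were at 0.886, 0.487 and 0.695 CPM and mutant EOM libraries at 1.5, 0.439 and 0.878 CPM, with mutant library 2 below all 3 WT libraries (0.44, SE 0.59). Trunk values were 0.366, 0.514 and 0.299 CPM in WT and 1.62, 0.38 and 0.673 CPM in the mutant, library 1 highest and library 2 within the WT range (1.17, SE 0.60, adjusted p = 0.443). Its paralogue mpeg1.2 was sparse, with 0 to 22 reads per library and none in mutant trunk library 2. Reads on the opposite strand, 0 to 15 per library and left out of the count, made up 25.8% of the reads on both strands at mpeg1.2. Its levels were 0.076, 0.104 and 0.163 CPM in WT EOM against 0.147, 0.0628 and 0.115 CPM in mutant EOM, and 0.277, 0.203 and 0.127 CPM in WT trunk against 0.103, 0 and 0.233 CPM in mutant trunk. All 4 groups of mpeg1.2 overlapped, and as a near copy of mpeg1.1 it may share reads with that gene.

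The 2 receptors for the macrophage growth factors Csf1 and Il34, csf1ra and csf1rb, were not called for genotype. The level of csf1ra, which zebrafish also use in yellow pigment cells, was 2.27, 2.63 and 9.11 CPM in WT EOM against 6.4, 5.3 and 13.3 CPM in mutant EOM. Library 3 was highest in both genotypes, each mutant library lay above the WT library of its number, and the groups overlapped (0.85, SE 0.52, adjusted p = 0.999, or 0.071 with the block). In trunk csf1ra was at 6.42, 6.75 and 5.43 CPM in WT and 6.7, 2.11 and 6.18 CPM in the mutant, where library 2 was the lowest of all 12 (-0.32, SE 0.42).

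For csf1rb the levels were 0.583, 0.348 and 1.38 CPM in WT EOM against 0.618, 0.753 and 1.63 CPM in mutant EOM, library 3 again highest in both and each mutant library above the WT library of its number (0.40, SE 0.61). In trunk they were 1.29, 1.01 and 0.909 CPM in WT and 0.67, 0 and 0.517 CPM in the mutant. Mutant library 2 had no csf1rb read, and all 3 mutant libraries lay below the WT libraries, the only tested gene of the 36 for which that held (-1.42, SE 0.98, adjusted p = 0.538). In the same library marco was at its trunk maximum.

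Apolipoprotein E, encoded by apoeb, carries lipids and is a marker of microglia, the macrophages of the brain, in zebrafish. It was at 395, 275 and 232 CPM in WT EOM against 520, 347 and 150 CPM in mutant EOM, the mutant libraries spanning the whole WT range (0.16, SE 0.55). Trunk values were 27.6, 31.7 and 41.3 CPM in WT and 32.1, 43.1 and 23.4 CPM in the mutant, also overlapping (-0.03, SE 0.28). The chemokine gene ccl34b.1 was at 8.71, 3.55 and 1.86 CPM in WT EOM against 5.48, 6.65 and 1.89 CPM in mutant EOM, and 0.996, 0.663 and 0.69 CPM in WT trunk against 1.24, 2.14 and 0.297 CPM in mutant trunk. In both tissues its genotype groups overlapped, with a difference of -0.03 (SE 0.53) in EOM and 0.64 (SE 0.67) in trunk. The chemokine receptor gene cxcr3.2, which zebrafish macrophages use in recruitment, was at 2.56, 1.22 and 1.47 CPM in WT EOM against 3.03, 1.54 and 1.47 CPM in mutant EOM, and 1.13, 1.39 and 1.09 CPM in WT trunk against 1.8, 1.28 and 0.996 CPM in mutant trunk. Its groups overlapped in both tissues (0.20, SE 0.50, and 0.17, SE 0.36).

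The phosphatidylserine receptor gene havcr1, of a family that binds dying cells, ranged from 2.73 to 3.36 CPM in WT EOM against 4.16 to 9.92 CPM in mutant EOM. Its mutant libraries lay above the WT libraries in both tissues, with 1.75 to 2.58 CPM in WT trunk and 3.21 to 7.91 CPM in mutant trunk. The differences were 1.05 (SE 0.46, adjusted p = 0.807) for EOM, and 1.21 (SE 0.44, adjusted p = 0.338) in trunk. The galectin gene lgals9l1 was at 1.03 to 1.1 CPM in WT EOM against 1.51 to 2.71 CPM in mutant EOM, without overlap (0.94, SE 0.49). Its trunk ranges, 0.368 to 0.681 CPM in WT and 0.166 to 0.876 CPM in the mutant, overlapped (-0.23, SE 0.66).

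On the neutrophil side, all 3 tested genes were positive in EOM and all 3 negative in trunk, but no genotype groups of theirs were without overlap. The gene of the granulocyte growth factor receptor, csf3r, was at 0.367, 0.73 and 1.58 CPM in WT EOM against 1.5, 2.04 and 3.04 CPM in mutant EOM. Each mutant library lay above the WT library of the same number, with a difference of 1.30 (SE 0.56, adjusted p = 0.784) that was called with the block at 1.46 (adjusted p = 0.0307). In trunk csf3r was at 1.6, 1.41 and 1.38 CPM in WT and 1.91, 0.0475 and 1.88 CPM in the mutant, libraries 1 and 3 above every WT library and library 2 at 2 reads (-0.20, SE 0.92).

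Myeloid peroxidase, the product of mpx, is stored in neutrophil granules. Its gene was at 0.861, 0.913 and 0.307 CPM in WT EOM against 1.15, 1.82 and 0.597 CPM in mutant EOM, each mutant library above the WT library of its number but the groups overlapping (0.76, SE 0.59, adjusted p = 0.999). WT trunk libraries were at 2.43, 0.649 and 0.391 CPM and mutant trunk libraries at 0.533, 0.356 and 0.233 CPM. WT trunk library 1 held the highest mpx level of the 12 and the other libraries overlapped (-1.64, SE 0.76, adjusted p = 0.412). The gelatinase gene mmp9 was at 1.61, 1.15 and 0.406 CPM in WT EOM against 1.31, 2.37 and 0.849 CPM in mutant EOM, the groups overlapping (0.50, SE 0.57). In trunk mmp9 was at 4.2, 1.29 and 1.12 CPM in WT, with the same library 1 highest, and 1.22, 1.92 and 0.854 CPM in the mutant (-0.73, SE 0.61).

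The phagocyte NADPH oxidase makes superoxide at the membrane of the phagosome, and all 5 of its listed genes were positive in both tissues, ncf1 in trunk excepted under library totals (-0.02). Its catalytic subunit, cybb, was at 2.17, 1.62 and 3.69 CPM in WT EOM against 4.2, 3.86 and 3.88 CPM in mutant EOM, the mutant libraries just above the highest WT library (0.68, SE 0.46). Trunk values of cybb were 2.47, 3.34 and 1.33 CPM in WT and 4.3, 2.76 and 3.16 CPM in the mutant and overlapped (0.51, SE 0.39). The membrane partner of the catalytic subunit, cyba, was at 10.8, 6.95 and 6.6 CPM in WT EOM against 16.3, 11.2 and 8.02 CPM in mutant EOM, and 2.77, 2.84 and 2.42 CPM in WT trunk against 5.29, 6.56 and 2.6 CPM in mutant trunk. Its genotype groups overlapped in both tissues, by 1 library in trunk (0.54, SE 0.43 for EOM, and 0.85, SE 0.37 for trunk).

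The cytosolic organiser ncf1 was at 1.82, 1.25 and 1.73 CPM in WT EOM against 3.89, 2.43 and 2.34 CPM in mutant EOM, without overlap (0.84, SE 0.47, adjusted p = 0.968). In trunk ncf1 was at 1.15, 0.934 and 0.99 CPM in WT and 1.63, 1.24 and 1.36 CPM in the mutant, also without overlap (0.46, SE 0.32). The regulatory subunit gene ncf4 was at 0.342, 0.157 and 0.298 CPM in WT EOM against 1.37, 0.784 and 1.01 CPM in mutant EOM, every mutant library above every WT library. That difference was 1.99 (SE 0.62, adjusted p = 0.374) and was called with the block at 2.02 (adjusted p = 0.0213). In trunk ncf4 was at 0.227, 0.284 and 0.334 CPM in WT and 1.19, 0.356 and 0.582 CPM in the mutant, library 2 lying close to the highest WT library (1.32, SE 0.55, adjusted p = 0.375).

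The GTPase Rac2 switches the oxidase on and drives leukocyte migration. Its gene was at 9.78, 8.23 and 6.07 CPM in WT EOM against 29.2, 17.5 and 9.04 CPM in mutant EOM, where library 3 lay below the highest WT library (1.2, SE 0.46, adjusted p = 0.672, called with the block at 0.0374). In trunk rac2 was at 4.22, 4.84 and 3.81 CPM in WT and 7.96, 15.9 and 7.26 CPM in the mutant, with no overlap and library 2 highest (1.28, SE 0.35, adjusted p = 0.265).

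**Figure D3:**
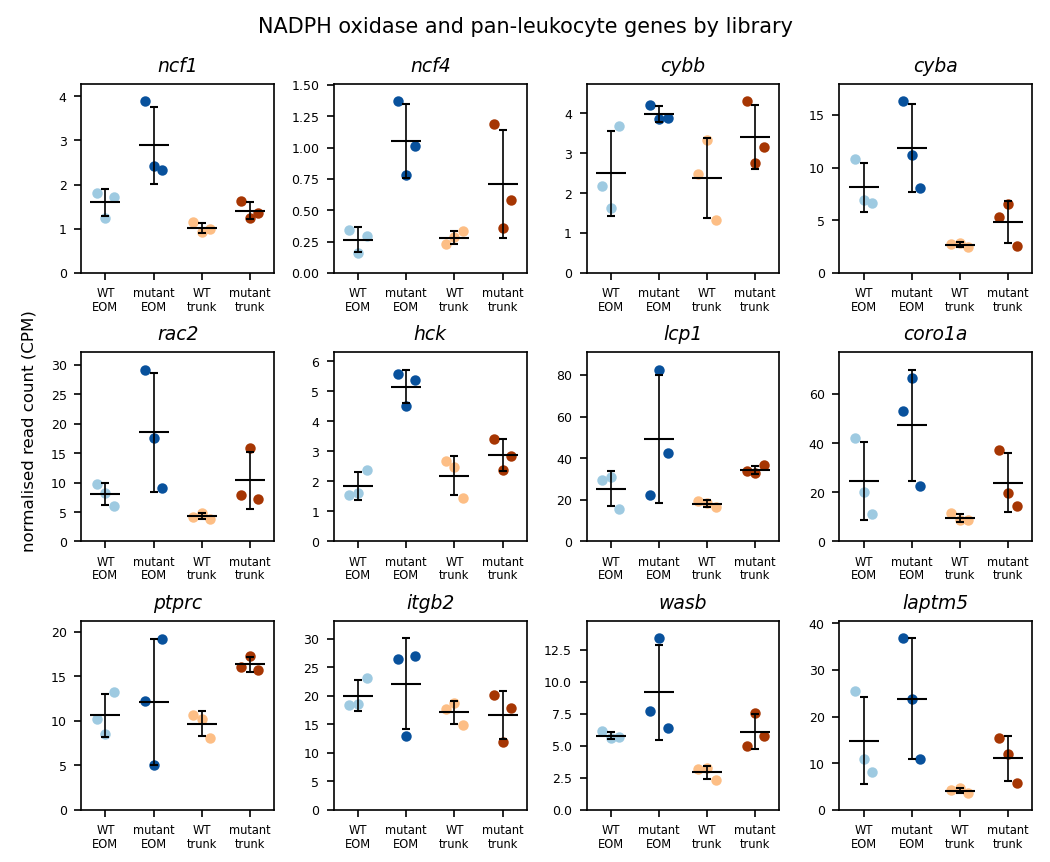
Normalised read count (CPM, y axis, one linear scale per panel starting at 0) in each library of the 4 groups for the 5 NADPH oxidase genes and 7 pan-leukocyte genes; points are libraries and black bars the mean ± SD of 3. The mutant EOM points of hck and ncf4 lie above the WT EOM points, and in WT the EOM points of lcp1, coro1a and laptm5 spread more widely than the trunk points.

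The pan-leukocyte genes were positive in EOM in 10 of 10 cases and in trunk in 9 of 10, or 8 under library totals. The Src family kinase gene hck, which signals below integrins and Fc receptors, had the smallest p of the list in EOM. It was at 1.55, 1.61 and 2.38 CPM in WT EOM against 5.58, 4.53 and 5.38 CPM in mutant EOM, far apart and without overlap (1.49, SE 0.45, adjusted p = 0.34, called with the block at 0.00422). Trunk values, 2.67, 2.48 and 1.44 CPM in WT and 3.42, 2.38 and 2.85 CPM in the mutant, overlapped (0.39, SE 0.33, adjusted p = 0.601).

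L-plastin, the leukocyte actin bundler encoded by lcp1, was at 29.6, 30.9 and 15.7 CPM in WT EOM against 22.3, 82.5 and 42.5 CPM in mutant EOM. Mutant library 2 was the highest of 12 and mutant library 1 lay within the WT range (0.94, SE 0.49). In trunk lcp1 was tight within each genotype on the TMM scale, with no overlap. It was at 19.5, 18.5 and 16.3 CPM in WT and 33.8, 32.7 and 36.6 CPM in the mutant (0.92, SE 0.17, adjusted p = 0.152, or 0.000352 by DESeq2). The closeness of the mutant libraries depended on the TMM factors, with 1964, 1377 and 2831 lcp1 reads. Under library totals alone the lcp1 difference was 0.45. The actin regulator gene coro1a was at 42.1, 20.2 and 11.3 CPM in WT EOM against 52.9, 66.6 and 22.5 CPM in mutant EOM, where both genotypes were lowest in library 3 (0.94, SE 0.51, adjusted p = 0.963, or 0.0622 with the block). In trunk coro1a was at 11.4, 8.77 and 8.64 CPM in WT and 37.3, 19.9 and 14.3 CPM in the mutant, without overlap (1.31, SE 0.36, adjusted p = 0.265).

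The gene of the leukocyte common antigen, ptprc, a phosphatase on all leukocytes, was at 10.2, 8.47 and 13.2 CPM in WT EOM against 12.2, 5.04 and 19.2 CPM in mutant EOM. Mutant library 2 held the lowest level of the 12 and mutant library 3 the highest (0.20, SE 0.46). In trunk ptprc was at 10.7, 10.2 and 8.07 CPM in WT and 16.1, 17.3 and 15.7 CPM in the mutant, with the mutant libraries close together and above all WT libraries on the TMM scale (0.76, SE 0.20, adjusted p = 0.237). Here too the closeness depended on the TMM factors, with 934, 730 and 1212 ptprc reads in the mutant libraries. The β2 integrin gene itgb2 was at 18.4, 18.5 and 23.2 CPM in WT EOM against 26.5, 13 and 27 CPM in mutant EOM, and 17.7, 18.8 and 14.9 CPM in WT trunk against 20.1, 11.9 and 17.8 CPM in mutant trunk. Its genotype groups overlapped in both tissues, with mutant library 2 the lowest in each (0.15, SE 0.43 for EOM, and -0.05, SE 0.23 for trunk).

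The lysosomal membrane protein gene laptm5 was at 25.5, 10.9 and 8.21 CPM in WT EOM against 36.8, 23.7 and 11 CPM in mutant EOM, both genotypes highest in library 1 and lowest in library 3 and the groups overlapping (0.67, SE 0.49). In trunk laptm5 was at 4.26, 4.63 and 3.59 CPM in WT and 15.4, 11.9 and 5.86 CPM in the mutant, without overlap (1.41, SE 0.36, adjusted p = 0.241). The Wiskott-Aldrich syndrome protein gene wasb, which activates actin branching in blood cells, was at 6.12, 5.61 and 5.66 CPM in WT EOM against 7.7, 13.4 and 6.41 CPM in mutant EOM, the mutant libraries above the WT libraries and library 2 highest (0.65, SE 0.43). In trunk wasb was at 3.19, 3.25 and 2.36 CPM in WT and 4.97, 7.6 and 5.77 CPM in the mutant, again apart (1.06, SE 0.28, adjusted p = 0.252).

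The other 3 pan-leukocyte genes were cxcr4b, arpc1b and plek. The chemokine receptor gene cxcr4b, whose ligand is Cxcl12, was at 12.3 to 14.9 CPM in WT EOM against 19.6 to 35.2 CPM in mutant EOM, and at 10.5 to 12.3 CPM in WT trunk and 15.8 to 20.1 CPM in mutant trunk. Neither tissue's groups overlapped (0.88, SE 0.43, adjusted p = 0.924 for EOM, and 0.71, SE 0.19, adjusted p = 0.254 for trunk). The actin branching subunit gene arpc1b was at 21.2 to 40.4 CPM in WT EOM against 30.9 to 70.8 CPM in mutant EOM, overlapping, and at 13 to 19.6 CPM in WT trunk and 24.8 to 43.8 CPM in mutant trunk, apart (0.95, SE 0.28, adjusted p = 0.281). The protein kinase C substrate gene plek overlapped in both tissues (0.28, SE 0.49 for EOM, and 0.78, SE 0.40 for trunk).

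Of the cytokines, il1b, the inflammasome product that recruits neutrophils, did not separate the genotypes. It was at 0.773, 0.73 and 1.07 CPM in WT EOM against 0.795, 0.643 and 1.11 CPM in mutant EOM, with nearly the same range in both (-0.00, SE 0.55). In trunk il1b was at 0.832, 1.23 and 0.84 CPM in WT and 0.928, 0.475 and 1.33 CPM in the mutant, where library 2 was the lowest and library 3 the highest of all 12 (-0.08, SE 0.46). The level of tnfa was 0.0886, 0.0087 and 0.0903 CPM in WT EOM against 0.0883, 0 and 0.0432 CPM in mutant EOM, and 0.0126, 0 and 0 CPM in WT trunk against 0.0687, 0.261 and 0.0259 CPM in mutant trunk, the last with its highest value in library 2 from 11 reads. No fold is given for tnfa, mmp13a or lyz.

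The tetraspanin gene tspan36 lies next but one to mpeg1.1 in gene order and is known in zebrafish from pigment cells as well. It was at 18, 13.5 and 17.2 CPM in WT EOM against 41.4, 14.9 and 15.8 CPM in mutant EOM, with only library 1 of the mutant above the WT range (0.56, SE 0.46). In trunk it was at 8.75, 8.2 and 8.69 CPM in WT and 15, 15.1 and 14.8 CPM in the mutant, tight and apart on the TMM scale (0.81, SE 0.17, adjusted p = 0.184, or 0.00156 by DESeq2). The closeness of the mutant libraries depended on the TMM factors, with 871, 637 and 1142 tspan36 reads. Under library totals alone the tspan36 difference was 0.32. Summed over 15 pigment cell genes, the level was 18.8 to 22 CPM in WT trunk and 24.5 to 37.7 CPM in mutant trunk, also apart, and 7.27 to 12.2 and 9.74 to 15.1 CPM in the 2 EOM groups. The part of pigment cells in the tspan36 and csf1ra values was not tested.

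The genotype effect was then compared between the tissues by an interaction term fitted to the 12 libraries together, in which the EOM effect is subtracted from the trunk effect. This term asks whether the resistance of EOM to desmin loss that the series set out to examine goes with another leukocyte response. Of the 33 genes, 0 were called by edgeR, where 0.00998% of all 20041 genes were, and 0 by DESeq2, where 0.065% were. At an unadjusted p under 0.05 there was 1, mpx, where 4.43% of all genes were (-2.40, SE 0.99, adjusted p = 0.934). With 1 library left out the mpx value ran from -2.81 to -1.25. WT trunk library 1 was at 2.43 CPM of mpx, against 0.649 and 0.391 CPM in WT trunk libraries 2 and 3. The next smallest p was that of hck (-1.09, SE 0.51, adjusted p = 0.934). The median over the 33 genes was -0.03, as over all genes. For irf8 the interaction was 0.67 (SE 0.56) and for spi1a 0.08 (SE 0.43). With SEs of this size, a difference between the tissues as large as most genotype effects above was not detectable.

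Mutant libraries did not carry the higher levels evenly. Among the 33 genes, 23 in mutant EOM library 1, 19 in library 2 and 19 in library 3 lay above every WT EOM library, where 29.3 to 31.2% of all genes did. In trunk the counts were 26, 20 and 20, where 30.1 to 37.8% of all genes did. Mutant EOM library 1 was the highest of the 12 libraries for 17 of the 33 genes, and WT trunk library 3 the lowest for 14. How often each library was the highest or lowest of 12 over all genes was not counted. These counts, and the extremes named in the next paragraph, therefore cannot be read as particular to the leukocyte genes.

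Mutant trunk library 2 and mutant EOM library 2, the libraries with the fewest genes detected, each held a mixed pattern. Mutant trunk library 2 was the lowest of 12 for mpeg1.2, csf1ra, csf1rb, itgb2, csf3r, il1b and lgals9l1, yet the highest trunk library for marco, spi1a, havcr1, rac2, wasb, arpc1b and others. Mutant EOM library 2 was lowest of 12 for spi1b and ptprc and highest for lcp1, coro1a and wasb. Mutant EOM library 3, in contrast, was highest for csf1ra, csf1rb, ptprc, itgb2 and csf3r. Without mutant trunk library 2, 27 of 33 genes were positive in trunk. At an unadjusted p under 0.05, 16 were higher, where 9.26% of all genes were, and 1 was lower. Without mutant EOM library 2, 32 of 33 were positive in EOM, with 9 higher at that threshold, where 2.8% of all genes were. The positive count did not rise with every library left out. Without mutant EOM library 1 it fell to 25 of 33, from 29 with all 6 EOM libraries. Then 6 were higher at that threshold, where 2.95% of all genes were.

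**Figure D4:**
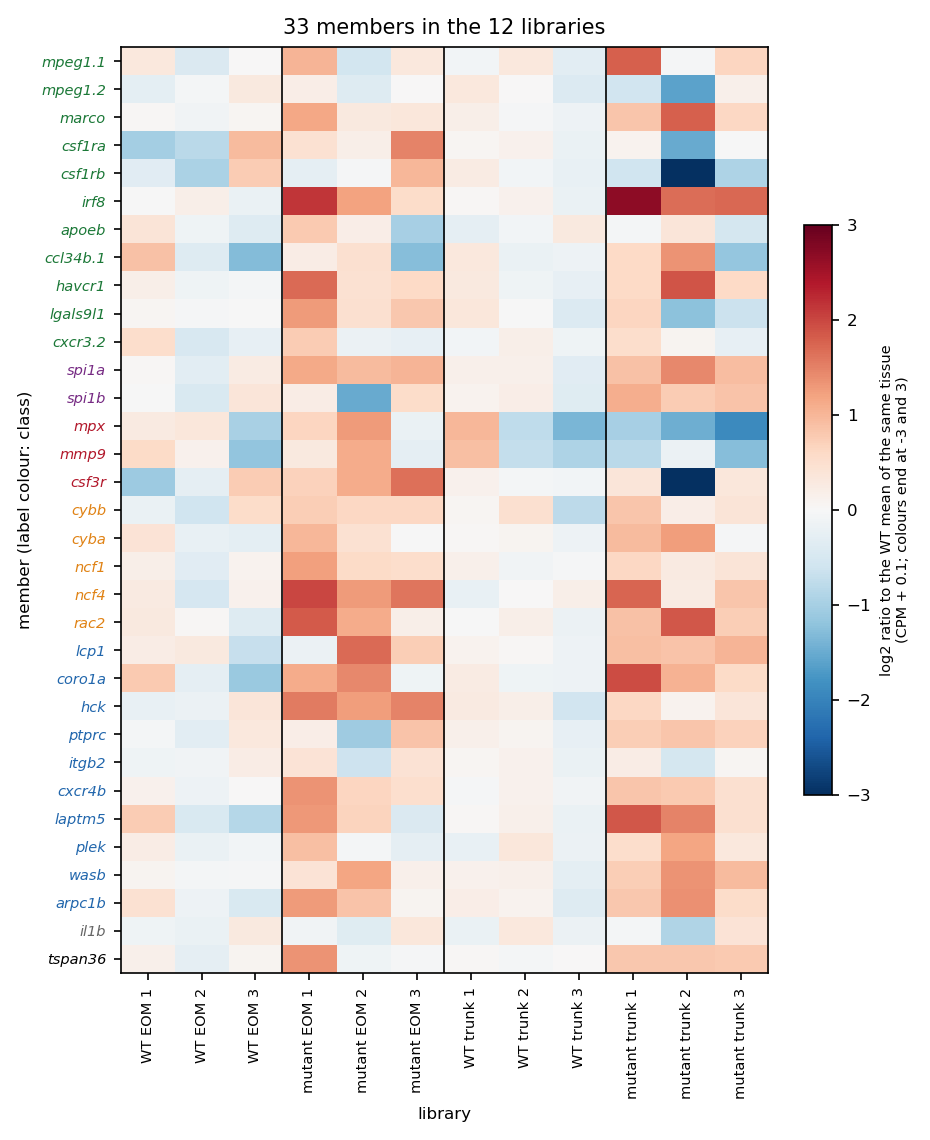
Log2 ratio of each library to the mean of the 3 WT libraries of its own tissue (colour, on CPM + 0.1, the scale ending at -3 and 3) for the 33 tested genes (rows, by role) in the 12 libraries (columns). Mutant columns are mostly above 0, and mutant trunk library 2 holds the strongest negative cells, in csf1rb and csf3r.

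The 2 tissues were also compared within each genotype. In WT fish, 10 of the 33 genes (30.3%) were called, where 27% of all 18981 genes were, so the share itself was near the background. All 10 fell from EOM to trunk, where 13.1% of all genes did, and none rose, where 13.8% did. The median over the 33 genes was -0.51, against -0.01 over all genes, and in 15 genes every trunk library lay below every EOM library, where 22.5% of all genes did. The number called was 6 without WT trunk library 2 or 3. It was 17 without WT EOM library 3, and 3 of these, csf1ra, csf1rb and csf3r, were higher in trunk. The fit over all 12 libraries called 4 of them: apoeb, cyba, laptm5 and ccl34b.1.

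The largest of these WT differences was in apoeb (-3.15, SE 0.32, adjusted p = 0.000126), whose EOM libraries lay several-fold above all trunk libraries. Next came ccl34b.1 (-2.57, SE 0.52, adjusted p = 0.00578), laptm5 (-1.82, SE 0.39, adjusted p = 0.0079) and cyba (-1.58, SE 0.25, adjusted p = 0.00169). The others were coro1a (-1.34), wasb (-0.97), tspan36 (-0.91), marco (-0.91), rac2 (-0.89) and irf8 (-0.84). Of these, irf8, coro1a and rac2 lost the call in 4, 5 and 5 of the 6 fits that left out 1 library, wasb without WT trunk library 3 and tspan36 without WT trunk library 2. The neutrophil genes had the other sign, mpx 0.74 (SE 0.66), mmp9 1.07 (SE 0.59) and csf3r 0.73 (SE 0.45), and none passed with all 6 libraries. The receptor genes csf1ra and csf1rb were at 0.43 (SE 0.46) and 0.49 (SE 0.47), and ptprc and itgb2 at -0.12 (SE 0.22) and -0.21 (SE 0.20), also without a call with all 6 libraries. Of the 11 macrophage side genes, 3 were higher in trunk and 8 lower. Which cells the apoeb reads came from was not tested.

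In mutant fish, 1 of the 33 genes was called, where 6.57% of all 18049 genes were and 3.37% were lower in trunk: apoeb (-3.24, SE 0.57, adjusted p = 0.00161). The median over the 33 genes was -0.50. Mutant EOM lay above mutant trunk without overlap in 6 genes, cyba, ncf1, hck, mpx, apoeb and lgals9l1, where 12.4% of all genes did, and below it in 1, spi1b, where 10.9% did. The galectin gene lgals9l1 was at -2.13 (SE 0.71, adjusted p = 0.0952, or 0.0207 by DESeq2 and 0.0494 with the block). The chemokine gene ccl34b.1 was at -1.82 (SE 0.71, adjusted p = 0.176, or 0.0326 with the block). Same-numbered mutant libraries of the 2 tissues correlated at -0.13, 0.14 and 0.40, so for lgals9l1 and ccl34b.1 the block rests on numbers that did not pair all libraries. A gene called in WT and not in mutant fish is not thereby shown to differ, since the difference of the 2 tissue effects is the interaction given above, in which no gene of the list was called. Scaling by library totals moved the all-gene median to -0.43 in WT and to -0.86 in mutant fish. Relative to it the median over the 33 genes was then -0.47 and -0.46.

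**Figure D5:**
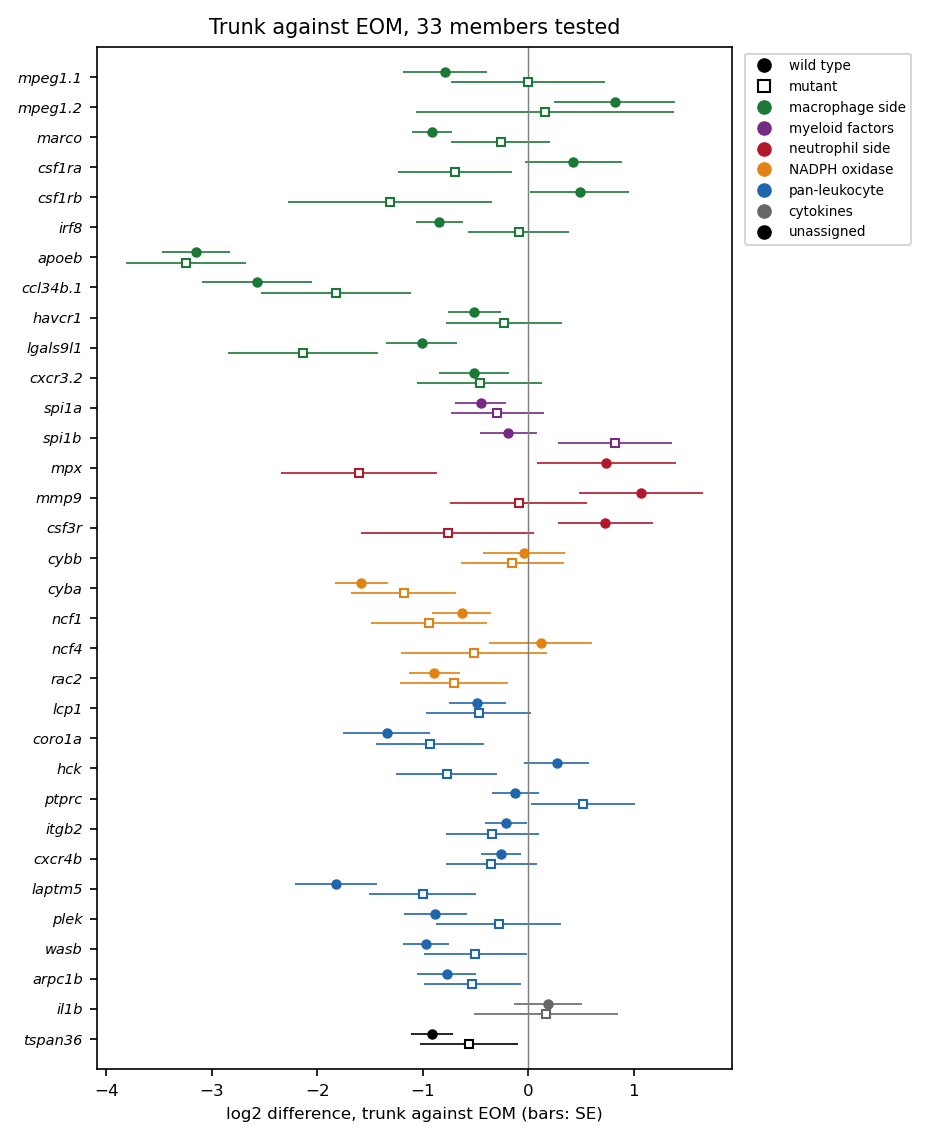
Log2 fold change of trunk over EOM (x axis, positive where trunk was higher) for the 33 tested genes (rows, grouped by role), with bars of 1 SE. Circles are WT and squares mutant fish. Most points lie left of 0, apoeb farthest in both genotypes, and the WT points of mpx, mmp9 and csf3r lie right of 0.

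Pathway partners of these genes were read from further lists, by counts. Of 12 ligand genes of the receptors above, 6 were tested in each genotype comparison and edgeR without the block called none. In EOM 3 were positive and 3 negative, with a median of -0.24, and in trunk 5 were positive and 1 negative, with a median of 0.72. The Cxcr4 ligand gene cxcl12b was at 7.76, 9 and 10.4 CPM in WT EOM against 29.4, 13 and 20.5 CPM in mutant EOM (1.21, SE 0.44, adjusted p = 0.588, called with the block at 0.0262), the mutant libraries above the WT libraries. In trunk it was at 24.9, 28.7 and 23.9 CPM in WT and 77.1, 44.5 and 54.7 CPM in the mutant, also apart (1.18, SE 0.24, adjusted p = 0.165, or 0.00162 by DESeq2). Between WT tissues, the macrophage growth factor gene csf1a rose from EOM to trunk (3.64, SE 0.35, adjusted p = 0.000103), as did cxcl12b (1.53, SE 0.20), while il34, the other ligand of the Csf1 receptors, fell (-1.11, SE 0.21, adjusted p = 0.00392).

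Of 20 other macrophage genes, 18 were found, and in EOM 5 of 15 tested were higher and 1 lower at an unadjusted p under 0.05, where 2.58% of all genes were higher and 2.79% lower, with a median of 0.80. In trunk 6 of 16 were higher, where 8.72% of all genes were, and 0 lower, with a median of 0.55. None was called by edgeR without the block, and DESeq2 called 2 in trunk, fcer1gl and ms4a17a.10 (adjusted p = 0.00286 and 0.0273). In EOM all 3 mutant libraries lay above the WT libraries in 5 of the 15 genes and below them in 3, where 4.05% and 6.93% of all genes did. Of these 3, mafb was at 0.659, 1.27 and 0.641 CPM in WT EOM and 0.309, 0.408 and 0.569 CPM in mutant EOM. The phosphatidylserine receptor gene timd4, a marker of resident macrophages in mice, was the 1 lower in mutant EOM at an unadjusted p under 0.05. It was at 23.6, 13.6 and 26.9 CPM in WT and 12.2, 5.16 and 10.1 CPM in the mutant, without overlap (-1.22, SE 0.45, called with the block at 0.00915). Its relative havcr1 was higher there, as given above. The Fc receptor chain gene fcer1gl was higher in both tissues (1.22, SE 0.49, adjusted p = 0.731 for EOM, and 1.80, SE 0.39, adjusted p = 0.188 for trunk), as was ms4a17a.10 (1.41 and 1.26). With the block, fcer1gl and ms4a17a.10 were called in EOM (adjusted p = 0.0206 and 0.00625).

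Of 10 other neutrophil genes found, 8 were tested in EOM and 7 in trunk, with 1 and 2 higher at an unadjusted p under 0.05, where 2.58% and 8.72% of all genes were, and medians of 0.53 and 0.49. In trunk the 2 were cebpb and srgn, which other cells use as well. Of 20 further genes of actin branching, 18 were positive in EOM and 16 in trunk, with 1 and 5 higher at that threshold. Under library totals alone 17 and 8 of them were positive, and their trunk median was then 0.44 above that of all genes. All 7 integrin partner genes tested were positive in EOM and 6 in trunk, with 1 higher at that threshold in each. Under library totals alone 4 of these 7 were positive in trunk. Of 24 inflammatory signalling genes tested in each tissue, 12 were positive in EOM and 13 in trunk, with 1 and 4 higher at that threshold, and the positive counts were near the 52% and 48.4% of all genes. The smallest p among the inflammatory genes in trunk was that of nfkbiaa, the NF-κB inhibitor that NF-κB itself induces (1.50, SE 0.23, adjusted p = 0.0857, or 3.46e-05 by DESeq2).

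Markers of other cells also differed between the groups. Summed over 21 lymphocyte genes, the level was 21.1 to 22.4 CPM in WT EOM against 24.3 to 27.9 CPM in mutant EOM, and 13.3 to 15.8 CPM in WT trunk and 16.9 to 18.6 CPM in mutant trunk, with no overlap in either tissue. Of these genes, 12 of 18 tested were positive in EOM and 10 of 15 in trunk, with medians of 0.36 and 0.17. Under library totals alone 10 and 7 were positive. At an unadjusted p under 0.05, 1 and 3 were higher, where 2.58% and 8.72% of all genes were. Several pan-leukocyte genes, ptprc and coro1a among them, are also expressed by lymphocytes, and the part of lymphocytes in their values was not tested. Over 8 erythrocyte genes the sum was 1316 to 5198 CPM in WT EOM against 500 to 1771 CPM in mutant EOM, overlapping, and 399 to 702 and 369 to 906 CPM in WT and mutant trunk. In mutant EOM 0 of the 8 erythrocyte genes were higher and 4 were lower at an unadjusted p under 0.05, where 2.79% of all genes were lower, and in mutant trunk 0 were higher and 2 lower, where 4.39% were lower. In each tissue 7 of the 8 were negative, the opposite sign to most leukocyte genes. Over 13 endothelial genes the sum was 378 to 501 CPM in WT trunk and 258 to 342 CPM in mutant trunk, lower in every mutant library, and 194 to 228 and 149 to 215 CPM in the EOM groups. Over 13 keratinocyte genes it was 134 to 174 CPM in WT trunk and 187 to 427 CPM in mutant trunk, higher in every mutant library, and 205 to 926 and 248 to 867 CPM in the EOM groups. Within the trunk sum, the gene icn alone was at 76.7, 47.8 and 68.1 CPM in WT against 306, 240 and 99.8 CPM in mutant trunk, while 6 of 12 keratinocyte genes tested were positive, with a median of 0.02, and krt5 and evpla were lower in every mutant library. Between tissues, 15 photoreceptor and retinal pigment genes summed to 18.2 to 38.7 CPM in WT EOM against 2.26 to 2.33 CPM in WT trunk. None of these cell marker lists had a gene without a read in all 12 libraries, and the part of these cells in the leukocyte values was not tested.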

How the data were processed

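Poly-A selected, stranded libraries of total RNA were made from dissected muscle, per the labels' protocols. For each library the authors deposited unnormalised read counts by gene, in the layout of STAR gene counts, with 1 unstranded and 2 stranded columns. STAR, DESeq2 and the genome build GRCz11 appear in the submitters' processing notes, without versions. The column with the strand of the genes held 96.43 to 97.26% of stranded reads and was used. Summary lines stayed out of library sizes: unmapped reads were 7.08 to 14.8% of all reads, multimapping reads 8.28 to 12.5%, reads outside genes 4.43 to 9.24% and ambiguous reads 1.22 to 1.8%. The counting keeps reads with 1 position, so near-identical copies lose or split reads.

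Symbols came from a gene name table that names 29201 of the 32520 genes. Symbols listed in capitals were resolved by their neighbours in the RefSeq annotation of GRCz12tu, used for names and gene order only. This placed 4341 of 4525 genes of known symbol, 99.3% of them correctly. Of the 36 genes, 20 were matched by symbol and 16 by neighbours: mpeg1.1, mpeg1.2, spi1b, irf8, lcp1, coro1a, ncf1, ncf4, hck, mpx, mmp9, cxcr4b, csf3r, plek, wasb and arpc1b. The table gives the gene taken as mpx the symbol EPX, so its identity rests on its neighbours alone and is less sure. Gene lengths were not used, so levels are compared within a gene, not between genes.

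Tests used edgeR 4.0.16 in R 4.3.3: TMM, the expression filter with a minimum count of 10 and a minimum total of 15, robust quasi-likelihood fits, and Benjamini-Hochberg adjustment across every gene tested, with a threshold of 0.05. Genotypes within a tissue and tissues within a genotype were compared over 6 libraries, and the interaction over 12. An SE was taken as the size of the log2 fold change divided by the root of its F statistic. Members and lists were chosen with earlier results of these data known. Genes given with every library were named by their role, a call in any comparison or 1 of the 3 smallest p in a genotype comparison, and of each further list up to 3 genes with the smallest p. The scripts were tested on simulated data. Counts set the precision: at a few reads per library, counting error alone is large.

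Replicate numbers in the titles were checked for pairing. Deviations from the group means correlated at 0.29, 0.25 and 0.55 between same-numbered WT and mutant EOM libraries, and at -0.10, 0.06 and -0.01 in trunk. Between tissues they correlated at 0.02, -0.08 and -0.08 in WT and -0.13, 0.14 and 0.40 in the mutant. All 3 pairs exceeded 0.1 in EOM only, so the numbers were taken to pair the EOM libraries, from the data and not from a label. Correlations between libraries of different number were not computed, so these values do not show that equal numbers match better. TMM factors rose with library number in both EOM genotypes (0.951, 1.27 and 1.68 in WT, and 0.887, 0.988 and 1.8 in the mutant). The part of such a shared trend in the correlations was not tested. Alternatives were RLE scaling, library totals alone, no filter, DESeq2 1.42.0, unstranded counts, 1 fit of all 12 libraries, the replicate block, and leaving out each library.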

Additional observations from a re-analysis of the deposited data

How the results depend on the processing

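The number of leukocyte genes called for genotype in EOM, 0, became 1 with DESeq2 and 6 with the replicate block, and stayed 0 under the other alternatives. In trunk, 0 became 1 with no filter on low counts, 10 with DESeq2, 1 with all 12 libraries in one fit and 0 to 2 when each library was left out. No interaction call arose under any alternative. Between WT tissues, 10 became 4 in the fit of all 12 libraries, 13 with DESeq2 and 6 to 17 when each library was left out. There lgals9l1 was added by RLE scaling, library totals alone, unstranded counts and DESeq2. All of these but RLE added plek, and DESeq2 and library totals added arpc1b. Between mutant tissues, 1 became 2 with library totals alone, 2 with DESeq2, 3 with all 12 libraries in one fit, 3 with the replicate block and 1 to 2 when each library was left out. The cause of these moves was not tested. Chosen after seeing the data, the counts higher at an unadjusted p under 0.05 were also taken when each library was left out. They ran from 4 to 10 in EOM, where 1.63 to 4.65% of all genes were higher. In trunk they ran from 13 to 16, where 3.56 to 12.5% were. Counts above without overlap ran from 11 to 16 in EOM, where 6.12 to 13.5% of all genes did. In trunk they ran from 16 to 19, where 14.4 to 22.3% did. With all 6 libraries those shares of all genes without overlap were lower, 4.05% in EOM and 12.6% in trunk. Under the other scalings no count of overlap was taken anew.

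Over all genes, calls for genotype in EOM (57) ran from 2 with library totals to 582 with the replicate block, with 125 by DESeq2, 120 with no filter, 34 with all 12 libraries in one fit and 0 to 78 when each library was left out. In trunk (6) they were 614 by DESeq2, 52 with no filter, 52 with all 12 libraries in one fit, 14 with unstranded counts, 3 with library totals, 0 with the replicate block and 0 to 251 when each library was left out. The interaction gave 2 calls, 13 by DESeq2, 0 with library totals and 1 to 3 when each library was left out. The fit of all 12 libraries gave 1968 in place of 5116 for WT tissues and 2313 in place of 1186 for mutant tissues, and leaving out each library gave 3103 to 7732 and 515 to 1644. The replicate block in trunk and between tissues uses numbers that did not pair all of those libraries. Over the 43 results of single genes with an unadjusted p under 0.05, none of 564 values under the alternatives changed sign, 22 lost a call and 40 gained one. Outside these, signs did change under several alternatives. Positive genes in trunk went from 23 to 19 with library totals alone. In EOM they went from 29 to 31 with RLE scaling, to 25 without mutant library 1 and to 32 without mutant library 2. Genes with few reads, such as mpeg1.2, csf1rb and csf3r in mutant trunk library 2, limit what depth can show.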

Other observations

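Further macrophage and lymphocyte genes differed between the tissues, and those named here had among the smallest p of their lists. Between WT tissues, 27% of all genes were called. Of 16 other macrophage genes tested there, 37.5% were called, 2 higher in trunk and 4 lower. Of 17 lymphocyte genes, 35.3% were called, all lower. Between mutant tissues the shares were 18.8% and 6.25%, where 6.57% of all genes were called. The transcription factor gene mafb, which acts in macrophage differentiation, was at 0.429 ± 0.131 CPM (SD, n = 3) in mutant EOM and at 4.37 ± 1.24 CPM in mutant trunk, and it rose from EOM to trunk (3.42, SE 0.61, adjusted p = 0.00188). The resident macrophage gene timd4 fell from EOM to trunk in WT fish, from 21.3 ± 6.94 to 5.81 ± 0.498 CPM (-1.86, SE 0.27, adjusted p = 0.000942). The lymphocyte genes eomesa (-3.13, SE 0.47, adjusted p = 0.0012) and nkl.2 (-1.76, SE 0.37, adjusted p = 0.0071) fell in the same comparison.

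Among lymphocyte genes, the T cell costimulatory receptor gene cd28 was at 0.29, 0.298 and 0.184 CPM in WT trunk and 1.37, 2.19 and 1.37 CPM in mutant trunk (2.67, SE 0.43, adjusted p = 0.0973 by edgeR and 4.5e-06 by DESeq2). All 3 mutant libraries lay above the WT libraries. In EOM cd28 was at 0.836, 0.47 and 0.813 CPM in WT and 3.11, 0.941 and 1.85 CPM in the mutant, also without overlap (1.47, SE 0.55, adjusted p = 0.639). Among erythrocyte genes, the globin gene hbaa2 was at 128, 35.6 and 50.1 CPM in WT EOM and 25.2, 19.7 and 10.7 CPM in mutant EOM (-1.95, SE 0.51, adjusted p = 0.157, called with the replicate block at 1.84e-05). Globin genes have near-identical copies, so the reads of hbaa2 are uncertain.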
